A study of Mus musculus with 30 samples.

Results

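Aquaporins are channel proteins that let water, and in some members glycerol, urea or other small solutes, cross cell membranes. The 4 members described in liver, Aqp8, Aqp9, Aqp11 and Aqp1, were chosen by name as the hepatic aquaporins, after earlier results had shown Aqp8 among the genes that were lower in germfree liver. The array carried 6 probes annotated to them among 24613 probes in all, and all 6 were detected on at least 7 of 30 arrays, the minimum for a test. The 4 genes are thus members of a set of 9084 genes tested, of which 7839 were named. Liver RNA came from C57BL/6J mice on an 11-week diet rich in fat, killed after 10 h without food, and each array, an Illumina single-colour bead array, held 1 liver. The 14 germfree mice carried no gut microbes and the 16 conventional mice carried a microbiota. Strain, diet and fasting were the same in both groups, and the labels used here gave no sex, age, cage or array batch. The question was how raising mice without microbes altered these channels in liver.

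In hepatocytes, AQP8 is a water channel held in vesicles and inserted into the canalicular membrane, where water follows solutes into bile, and it also passes hydrogen peroxide and ammonia. AQP9 lies in the sinusoidal membrane and is the route by which hepatocytes take up glycerol, released by fat tissue during fasting, for glucose synthesis. AQP11 is a distant member of the family that resides in the endoplasmic reticulum. AQP1 is a water channel of blood vessel endothelium, red cells and bile duct cells rather than of hepatocytes.

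Aqp8 was lower in germfree liver, but it had been noticed for this difference, so no p is given for it. For Aqp9, Aqp11 and the brighter Aqp1 probe, no difference passed the test. After background correction Aqp8 was 2.30-fold lower, a log2 difference of -1.20. The size depended on background handling, at -0.69 without background correction and -0.74 in the authors' normalized values. At a detection p under 0.01, Aqp8 was detected in 8 of 14 germfree and 15 of 16 conventional livers. Over all 30 livers with group means subtracted, Aqp8, Aqp9 and the brighter Aqp11 probe varied together. The brighter Aqp1 probe varied with genes of endothelial cells (median r = 0.46) and also with markers of Kupffer cells (median r = 0.34). In germfree livers alone, Aqp11 had r of only 0.15 with Aqp8 and 0.33 with Aqp9, and its dimmer probe did not follow the brighter one.

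The 4 promoters are shown as a description of the members. Each is the 250 bases before the RefSeq transcription start on mouse build GRCm38.p6, written 5′ to 3′ in the direction of the gene, with motif matches in capitals. Aqp8 lies at chr7:123462044-123462293 on the plus strand, Aqp9 at chr9:71163290-71163539 on the minus strand, Aqp11 at chr7:97738248-97738497 on the minus strand and Aqp1 at chr6:55336049-55336298 on the plus strand. For Aqp9 the more upstream of 2 RefSeq starts was taken.
Aqp8: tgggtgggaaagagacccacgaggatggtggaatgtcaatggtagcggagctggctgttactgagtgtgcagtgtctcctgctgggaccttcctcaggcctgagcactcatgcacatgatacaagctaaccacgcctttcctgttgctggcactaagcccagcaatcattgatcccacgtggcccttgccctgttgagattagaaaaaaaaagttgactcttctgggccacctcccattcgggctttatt
Aqp9: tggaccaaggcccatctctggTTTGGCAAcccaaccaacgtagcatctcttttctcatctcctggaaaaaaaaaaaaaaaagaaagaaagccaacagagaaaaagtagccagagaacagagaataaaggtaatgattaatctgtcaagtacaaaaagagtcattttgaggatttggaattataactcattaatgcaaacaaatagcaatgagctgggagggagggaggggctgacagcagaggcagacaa
Aqp11: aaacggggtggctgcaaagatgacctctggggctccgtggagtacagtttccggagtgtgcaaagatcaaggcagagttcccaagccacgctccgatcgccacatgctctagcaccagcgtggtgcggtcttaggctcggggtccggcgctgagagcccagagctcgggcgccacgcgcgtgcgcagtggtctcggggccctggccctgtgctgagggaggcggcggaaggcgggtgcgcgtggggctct
Aqp1: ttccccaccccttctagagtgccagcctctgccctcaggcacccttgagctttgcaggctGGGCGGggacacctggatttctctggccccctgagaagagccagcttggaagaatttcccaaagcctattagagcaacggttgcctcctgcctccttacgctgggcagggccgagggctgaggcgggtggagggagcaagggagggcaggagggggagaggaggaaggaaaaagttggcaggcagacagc

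The windows differed in base composition. GC content was 52.4% for Aqp8, 40.4% for Aqp9, 67.2% for Aqp11 and 62% for Aqp1, against a median of 52.4% over 32851 windows of the same length. Aqp11 held 23 CpG dinucleotides, while Aqp8 and Aqp1 held 5 each and Aqp9 held 1, against a median of 6. Short motifs were searched on both strands, and their share of all windows was counted. The TATA box TATAAA occurred in 12.4% of windows, the CCAAT box, written CCAAT, in 33.8% and the forkhead motif TGTTTAC in 3.17%. The HNF4 motif CAAAGTCCA occurred in 0.384%, the C/EBP motif TTGCNNAA in 9.56% and the GC box GGGCGG in 32.7%. Aqp9 held 1 C/EBP match on the other strand, starting at position -229 from the start, and Aqp1 held 1 GC box at -190. The Aqp8 and Aqp11 windows held none of these motifs, and no motif was common to the members that varied together.

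Signals were background corrected, quantile normalized and put on the log2 scale, and each member is read against itself only, since the brightness of a probe also depends on its sequence. Differences are germfree minus conventional in log2 units, with standard errors from limma. Mean raw signal per array was 133 to 359 intensity units in germfree and 85.5 to 359 in conventional livers. The share of probes detected was 36.6% to 41.7% in germfree and 33.7% to 41.7% in conventional livers. Of all 9084 genes, 590 or 6.49% passed an adjusted p of 0.05, 249 (2.74%) lower and 341 (3.75%) higher in germfree liver. Each replicate is the liver of a separate mouse, and precision is limited by how many mice were measured.

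Aqp8 (probe ILMN_2756379) had a normalized signal with a lowest value of 23.9, a median of 45.7 and a highest value of 107 in germfree livers. In conventional livers the lowest was 37.6, the median 98.1 and the highest 292. Most germfree livers were thus dim, with 13 of 14 below the conventional mean, and 6 were below every conventional liver. At the top, 7 of 16 conventional livers lay above every germfree liver, but the groups overlapped in the middle. The log2 mean was 5.46 ± 0.60 (SD, n = 14) in germfree and 6.66 ± 0.89 (SD, n = 16) in conventional livers, a difference of -1.20 ± 0.26 (SE, 95% interval -1.73 to -0.67). Counted from the lowest difference, Aqp8 had rank 10 of 9084 genes and rank 8 of the named ones. No p is given for Aqp8, because the gene was noticed for this difference. Nothing is read from the count of 1 called member of 4, beside 6.49% of all genes. In bulk liver, fewer cells expressing a gene and less RNA per cell cannot be told apart.

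The size of the Aqp8 difference depended on how background was handled, while its direction did not. Without background correction it was -0.69, and in the authors' own normalized values -0.74. In the raw signal the median was 71.9 intensity units in germfree and 134 in conventional livers. Aqp8 was above the negative control beads at a detection p under 0.05 in 12 of 14 germfree and 16 of 16 conventional livers, and under 0.01 in 8 and 15. The 2 livers in which it was not detected were germfree 9 and germfree 11, with detection p of 0.108 and 0.242. Germfree 11 had one of the brighter arrays, with a mean raw signal of 348, and germfree 9 had 232. Leaving out any 1 liver gave -1.30 to -1.10.

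**Figure D1:**
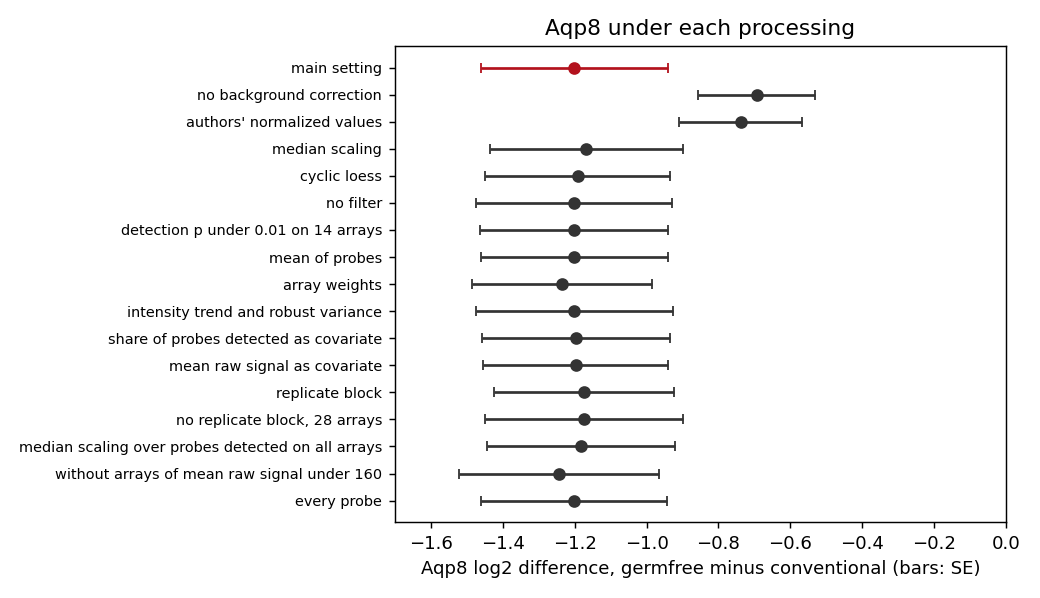
The log2 difference of Aqp8, germfree minus conventional, with its standard error under the main processing and each alternative. All points lie below 0, and the 2 smallest are those without background correction and from the authors' normalized values, -0.69 and -0.74.

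Aqp8 was also among the most variable genes within each group. Its SD of 0.60 in germfree livers was at the 98.4 percentile of all genes tested, and its SD of 0.89 in conventional livers at the 99.4 percentile. In conventional livers, where the probe was detected throughout, the normalized signal ran from 37.6 to 292.

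Aqp9 (probe ILMN_1214634), the glycerol channel, was detected in all 30 livers. Normalized signal was 3186 at the lowest, 4118 at the median and 5126 at the highest in germfree livers, and 3262, 4095 and 5249 in conventional livers. These ranges covered each other nearly fully. The geometric mean was 4088 in germfree and 4097 in conventional livers, with a log2 SD of 0.23 (n = 14) in germfree and 0.22 (n = 16) in conventional livers. The difference was -0.0031 ± 0.083 (SE, limma adjusted p = 0.989), and its 95% interval ran from 0.888-fold to 1.12-fold. Changes within that interval could not be resolved with these livers. The SD of Aqp9 was near the middle of all genes, at the 46.8 percentile in germfree and the 42.6 percentile in conventional livers.

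Aqp11 had a brighter probe, ILMN_1225901, detected in all 30 livers. Its log2 level was 7.50, 7.93 and 8.23 at the lowest, median and highest in germfree livers, and 6.77, 7.97 and 8.31 in conventional livers. The lowest 3 livers of all 30 were conventional, and the SD was 0.25 in germfree and 0.43 in conventional livers. The difference was 0.05 ± 0.12 (SE, 95% interval -0.20 to 0.30, limma adjusted p = 0.881). The dimmer Aqp11 probe, ILMN_2670407, was detected in 10 of 14 germfree and 10 of 16 conventional livers, and under 0.01 in 3 and 3. Its difference was 0.05 ± 0.15 (SE, limma adjusted p = 0.903 with every probe tested on its own), and its levels barely followed those of the brighter probe, with r = 0.13 over 30 livers within groups.

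Aqp1 had 2 probes for the same RefSeq transcript, both detected in all 30 livers. The brighter, ILMN_2756486, had log2 levels of 9.49, 10.28 and 10.60 at the lowest, median and highest in germfree livers, and 9.57, 10.20 and 10.69 in conventional livers. These ranges overlapped over nearly their whole length, and the difference was 0.03 ± 0.11 (SE, 95% interval -0.20 to 0.26, limma adjusted p = 0.931). The dimmer probe, ILMN_1213863, was at 5.61, 6.36 and 6.65 in germfree livers and at 6.12, 6.63 and 7.03 in conventional livers. Here 11 of 14 germfree livers lay below the conventional mean and 5 below every conventional liver.

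The dimmer Aqp1 probe had a mean of 6.26 ± 0.37 (SD, n = 14) in germfree and 6.61 ± 0.24 (SD, n = 16) in conventional livers. Its difference was -0.36 ± 0.11 (SE, 95% interval -0.58 to -0.14), and it passed at an adjusted p of 0.0422 (limma, every probe tested on its own), a fit in which 5.73% of 10525 probes passed. The call was not steady: it passed in 13 of 30 fits that each left out 1 liver and was lost in 17, with adjusted p of 0.023 to 0.075, and it passed in 6 of 14 other settings. The probes correlated at r = 0.58 over 30 livers within groups. The mean of both probes differed by -0.16 (limma adjusted p = 0.402). Whether the probes read different transcript forms was not tested, as their positions were not used here.

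**Figure D2:**
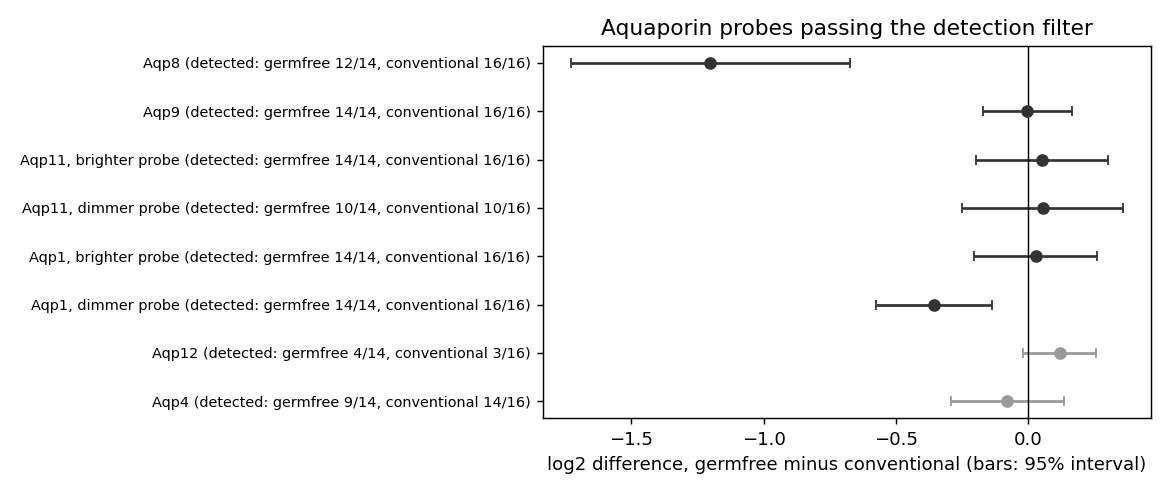
The log2 difference, germfree minus conventional, with 95% interval for each tested aquaporin probe, with detection in germfree and then conventional livers beside the name. Aqp8 lies far to the left at -1.20 and the dimmer Aqp1 probe at -0.36, while the intervals of the other member probes, and of Aqp12 and Aqp4 in grey, include 0.

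**Figure D3:**
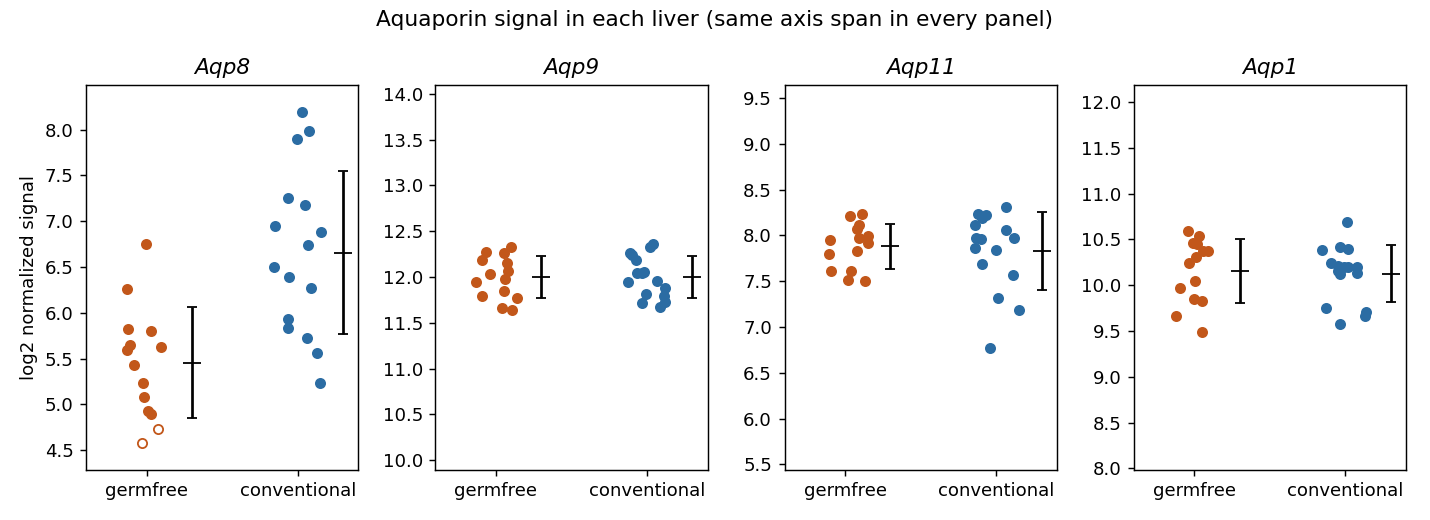
Normalized log2 level of each member in every liver, germfree left and conventional right, with mean and SD as bars and open circles for livers in which the probe was not detected. Aqp8 is lower in most germfree livers (mean 5.46 against 6.66) with overlap. For Aqp11 and Aqp1 only the brighter probe is drawn, and the ranges of Aqp9, Aqp11 and Aqp1 overlap over most of their length.

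The remaining aquaporins gave little signal in liver. Among 8 further aquaporin genes, 7 had 9 named probes, of which 4 were detected on no array and 2 passed the filter. Aqp3 and the 3 probes of Aqp7, the glycerol channel of fat cells, were detected in no liver. Aqp4 was detected in 9 of 14 germfree and 14 of 16 conventional livers, and its difference was -0.08 ± 0.11 (SE, limma adjusted p = 0.768). Aqp12, known from pancreatic acinar cells, was detected in 4 of 14 germfree and 3 of 16 conventional livers, with a difference of 0.12 ± 0.07 (SE, limma adjusted p = 0.352). Just outside the filter stood Mip, the lens aquaporin, detected in 2 germfree and 2 conventional livers. Just inside it was Aqp12 with 7 arrays, and the lowest count among member probes was 20.

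Within groups, Aqp8 and Aqp9 varied together. The brighter Aqp11 probe varied with both over all 30 livers. In germfree livers alone its r was 0.15 with Aqp8 and 0.33 with Aqp9. Over 30 livers, after the mean of each group was subtracted, Aqp8 and Aqp9 correlated at r = 0.67 and rho = 0.70 (permutation adjusted p = 0.00078 and 0.00048, two-sided, 6 pairs). The relation was r = 0.63 in germfree and 0.72 in conventional livers, and 0.64 without the 2 livers farthest from the median of Aqp8. A liver with much Aqp8 thus tended to hold much Aqp9 in either group. Of 9083 genes, 44 including Aqp9 itself correlated with Aqp8 at least as highly.

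Aqp8 and Aqp11 correlated at r = 0.60 and rho = 0.53 (permutation adjusted p = 0.00258 and 0.0116), and Aqp9 and Aqp11 at r = 0.55 and rho = 0.49 (permutation adjusted p = 0.00258 and 0.0116). Both values of r were higher in conventional livers. They were 0.15 in germfree and 0.75 in conventional livers for Aqp8 with Aqp11, and 0.33 in germfree and 0.70 in conventional livers for Aqp9 with Aqp11. The difference between groups was not tested. Without the 2 livers farthest from the median, r was 0.45 and 0.65. The Aqp11 values are those of its brighter probe, which the dimmer probe did not follow.

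Aqp1 stood apart from the other members. Its r was -0.09 with Aqp8, -0.003 with Aqp9 and 0.01 with Aqp11 (permutation adjusted p of at least 0.966, two-sided), and its rho was -0.11, -0.01 and 0.13 (permutation adjusted p of at least 0.658). For Aqp11 the signs differed by group, with r = 0.79 in germfree and -0.43 in conventional livers, a difference that was not tested. Without the 2 livers farthest from the median of Aqp11, its r with Aqp1 was 0.31. Under median scaling in place of quantile normalization, r was 0.62 between Aqp9 and Aqp1 (permutation adjusted p = 0.00135) and 0.54 between Aqp11 and Aqp1 (permutation adjusted p = 0.00465). Under that scaling Aqp9, Aqp11 and Aqp1 also followed the mean raw signal of the array, at r = 0.83, 0.68 and 0.71, and it called only 69 genes in all. In quantile-normalized values none of 8 relations between a member and array signal or detection passed (lowest permutation adjusted p = 0.700 for r and 0.518 for rho), with r from -0.23 to 0.07. The main axis of variation within groups, which held 15.1% of the variance, correlated with the members at 0.07, -0.03, -0.18 and 0.27 for Aqp8, Aqp9, Aqp11 and Aqp1.

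**Figure D4:**
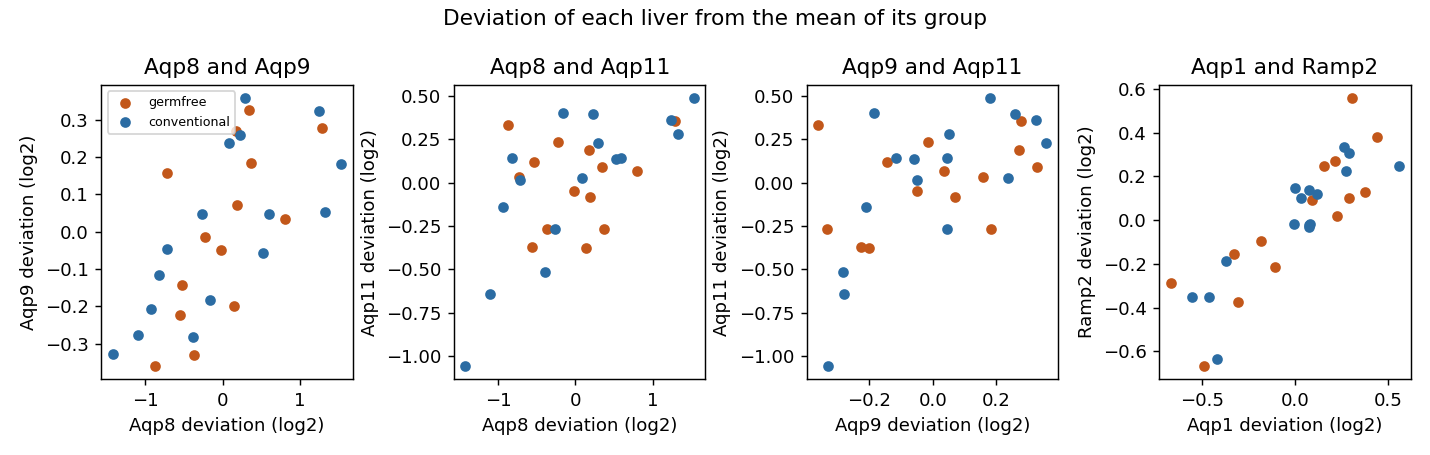
Levels of gene pairs per liver after subtraction of each group's mean (log2 units), with germfree and conventional livers in separate colours. Over all 30 livers Aqp8, Aqp9 and the brighter Aqp11 probe rise together (r = 0.67, 0.60 and 0.55). In germfree livers alone, r with Aqp11 is 0.15 for Aqp8 and 0.33 for Aqp9. The last panel sets Aqp1 against Ramp2, the gene most like it (r = 0.87).

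The genes most like each member, by r over 30 livers within groups, are given as a description with no test, and each r is taken from the same 30 arrays. For Aqp8 they were Pbld1 (r = 0.79), the apolipoprotein L gene Apol7a (0.79), the organic anion uptake transporter Slco2b1 (0.78), the glutathione transferase Gstm4 (0.77) and the sterol isomerase Ebp (0.77). The most opposed were the translation initiation factor Eif1a (-0.77), the Golgi matrix protein gene Golga2 (-0.76) and the ubiquitin ligase Trim39 (-0.74). For Aqp9 they were mitochondrial carbonic anhydrase Car5a (0.81), Magix (0.81), Vmac (0.81), the zinc transporter Slc39a11 (0.80) and again Apol7a (0.78), with the alcohol dehydrogenase Adh7 (-0.74), Zfp330 (-0.74) and again Eif1a (-0.72) opposed. Of the 100 genes most like Aqp8 and the 100 most like Aqp9, 48 were common to both.

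For Aqp11 the most like were Tmem150a (0.86), the autophagy gene Gabarapl1 (0.85), the endothelin-converting enzyme Ece1 (0.81), the lipogenic factor Thrsp (0.80) and Ppp1r3b, which targets a phosphatase to glycogen (0.80). The most opposed were Hsp90b1 (-0.82) and Hspa5 (-0.80), chaperones of the endoplasmic reticulum, and Slc35b1 (-0.81), a nucleotide transporter of its membrane. The dimmer Aqp11 probe had r of only -0.21 to 0.24 with these genes. Aqp11 shared 26 of its 100 most like genes with Aqp8 and 24 with Aqp9.

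For Aqp1 the most like were Ramp2, a partner of the adrenomedullin receptor (0.87), the planar polarity gene Prickle1 (0.80), Gpihbp1, which holds lipoprotein lipase on capillary endothelium (0.75), the ribosomal oxygenase Riox1 (0.74) and reelin, Reln (0.71). Cox20 (-0.65), the aminopeptidase Anpep (-0.65) and Zcrb1 (-0.64) were the most opposed. With the dimmer Aqp1 probe, Ramp2 had r = 0.63, Gpihbp1 0.50, Riox1 0.36, Prickle1 0.27 and Reln 0.20. Cox20, Anpep and Zcrb1 had -0.38, -0.22 and -0.11 with it. Aqp1 shared 0 of its 100 most like genes with Aqp8, Aqp9 or Aqp11.

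Aqp1 followed a list of 11 tested endothelial markers, 10 of which correlated with it above 0, with a median r of 0.46. The central 90% of all genes lay between -0.37 and 0.39. The highest were the endothelial cadherin Cdh5 at r = 0.69, the sinusoidal lectin Clec4g at 0.60, the scavenger receptor Stab2 at 0.53 and endoglin, Eng, at 0.50. The lowest were Vwf at 0.10 and Flt4 at -0.01. These values are those of the brighter Aqp1 probe. The same list had a median r of -0.02 with Aqp8, 0.02 with Aqp9 and 0.15 with Aqp11. Markers of Kupffer cells, the resident macrophages of the sinusoids, also correlated with Aqp1, 8 of 8 above 0 with a median of 0.34. Of 3 tested cholangiocyte markers the median r with Aqp1 was 0.06, and the duct markers Krt19, Epcam, Cftr and Cldn7 were detected on no array.

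**Figure D5:**
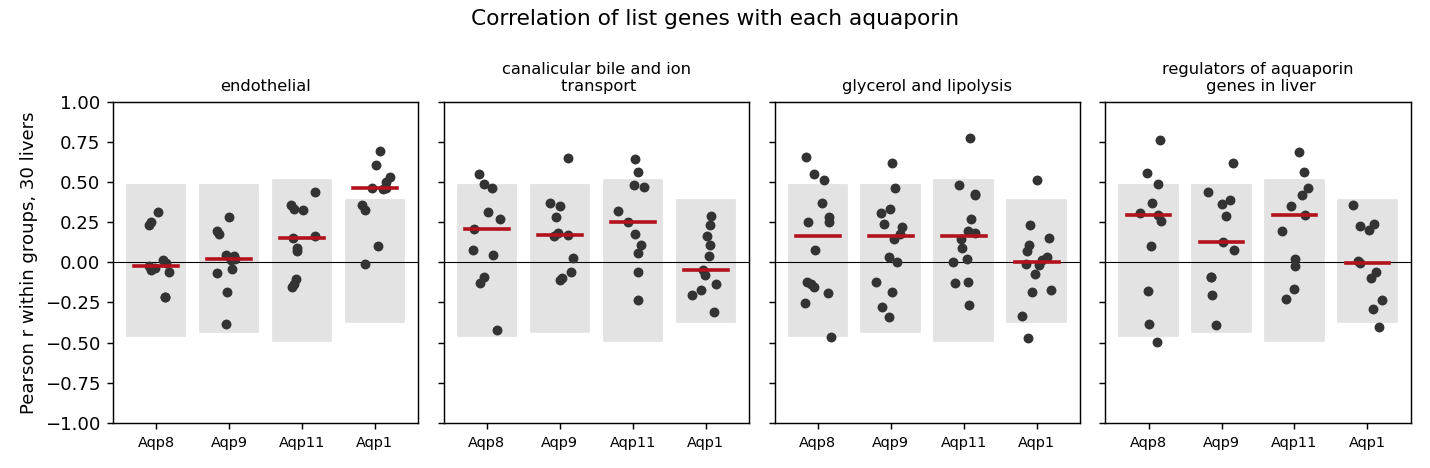
Correlation with each member over 30 livers within groups, for the genes of each list, with the list median as a red line and the 5th to 95th percentile of all genes as a grey band. Most endothelial genes lie high for the brighter Aqp1 probe (median 0.46), and their medians are near 0 for Aqp8 and Aqp9.

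Glycerol that enters through Aqp9 is used for glucose or triglyceride. Glycerol kinase, listed as both Gk and Gyk, had no named probe and was not measured. Of 19 listed symbols of glycerol use and lipolysis, 14 were tested, 0 rose and 2 fell in limma, beside 2.74% of all genes lower. At an unadjusted p under 0.05 there were 7 of 14, beside 18.7% of all genes, and the median difference was -0.01 against -0.0005 over all genes. Fructose bisphosphatase Fbp1, of glucose synthesis, had a mean of 10.08 ± 0.14 in germfree and 10.41 ± 0.12 in conventional livers and fell by 0.34 on the log2 scale (limma adjusted p = 0.000175). Tkfc, which phosphorylates dihydroxyacetone and glyceraldehyde, fell by 0.44 (limma adjusted p = 0.0062). Glucose-6-phosphatase, G6pc, differed by 0.66 ± 0.21 (SE) and missed the threshold (limma adjusted p = 0.052), and the glycerol phosphate dehydrogenases Gpd1 and Gpd2 differed by -0.27 each (0.152 and 0.174). Going the other way, Gpam and Dgat2 differed by 0.20 and 0.25 (limma adjusted p = 0.178 and 0.219). The acyltransferase Dgat2, which makes triglyceride, correlated with Aqp8 at 0.66, Aqp9 at 0.62 and Aqp11 at 0.78, and with Aqp1 at -0.01. The first 3 were the highest of the 14 tested genes, whose median r was 0.16 with each of Aqp8, Aqp9 and Aqp11. Lpl had r of -0.46, -0.34 and -0.13 with them.

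Of 18 genes of canalicular bile and ion transport, 11 were tested, 3 rose and 0 fell, beside 3.75% of all genes higher, with a median of 0.15 and 8 of 11 at an unadjusted p under 0.05, beside 18.7% of all genes. The sterol exporters Abcg5 and Abcg8 rose by 0.30 and 0.48 (limma adjusted p = 0.0188 and 0.0269), and the sodium pump subunit Atp1b1 by 0.64 (limma adjusted p = 0.0262). Abcg8 was lost without germfree 7 or germfree 9. The conjugate exporter Abcc2 differed by 0.28 (limma adjusted p = 0.0581), the bicarbonate cotransporter Slc4a4 by -0.47 (0.0881) and the bile salt export pump Abcb11 by -0.23 (0.208). Abcg8 correlated within groups with Aqp8 at 0.49, Aqp9 at 0.65 and Aqp11 at 0.64, where the medians of the 11 tested genes were 0.21, 0.17 and 0.25.

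Of 16 listed regulators, 11 were tested, 0 rose and 2 fell, beside 2.74% of all genes lower, with a median of -0.02. The lipogenic nuclear receptor Pparg, detected in 12 of 14 germfree and 16 of 16 conventional livers, had a mean of 5.26 ± 0.38 (SD, n = 14) in germfree and 6.43 ± 0.54 (SD, n = 16) in conventional livers. It fell by 1.17 on the log2 scale (limma adjusted p = 9.53e-06), with all 14 germfree livers below the conventional mean. Its size, like that of Aqp8, depended on background handling, at -0.62 without background correction and -0.67 in the authors' normalized values. The bile acid receptor Nr1h4 fell by 0.33 (limma adjusted p = 0.000379), also with all 14 below. The insulin-restrained factor Foxo1 differed by 0.37 (limma adjusted p = 0.0528) and the forkhead factor Foxa1 by 0.19 (0.348). Pparg correlated within groups with Aqp8 at 0.76, Aqp9 at 0.62 and Aqp11 at 0.56, and with Aqp1 at 0.00. Nr1h4 correlated with Aqp8 at 0.55, Aqp9 at 0.44 and Aqp11 at 0.42, and with Aqp1 at 0.01. Over the 11 tested regulators the median r was 0.30 with Aqp8, 0.13 with Aqp9 and 0.29 with Aqp11. Some went the other way, with r of -0.50 for Hnf4a and -0.39 for Cebpb with Aqp8. Whether any listed gene acts on an aquaporin in these livers was not tested.

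Of 14 genes of hydrogen peroxide handling, 10 were tested, 2 rose and 0 fell, beside 3.75% of all genes higher, with a median of -0.08. The peroxiredoxin Prdx4 rose by 0.26 (limma adjusted p = 0.0145) and the oxidase Nox4 by 0.41 (limma adjusted p = 0.0384), a call lost in 16 of 30 fits that each left out 1 liver. Mitochondrial superoxide dismutase Sod2 differed by -0.13 (limma adjusted p = 0.322). Of 14 genes of ammonia and urea handling, 9 were tested and 0 passed in limma, with 2 of 9 at an unadjusted p under 0.05, beside 18.7% of all genes, and a median of 0.03. Closest to the threshold were Glud1, which releases ammonia from glutamate, at -0.17 and Nags, which makes the activator of the urea cycle, at 0.17 (limma adjusted p = 0.209 and 0.211).

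The calls among list and marker genes depended most on scaling. Of 19 such genes, 17 kept their direction but lost the call under median scaling, and Pparg and Cela2a passed under it. Abcg5, Abcg8, Atp1b1, Prdx4, Nox4, Plin4, Reln, Tfrc and C1qc lost their call under at least 1 further alternative.

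Markers of liver cell types set the frame for these values. No hepatocyte marker passed in limma (0 of 7 tested, 0 at an unadjusted p under 0.05 beside 18.7% of all genes, median 0.05), with summed normalized signal of 96721 to 123335 in germfree and 96771 to 115875 in conventional livers, although the probes of Alb and Tat were removed by the filter. Summed endothelial signal was 1864 to 3406 in germfree and 1593 to 3079 in conventional livers, with 1 of 11 higher beside 3.75% of all genes, Stab2 by 0.47 (limma adjusted p = 0.00455). Kupffer markers were 607 to 1113 in germfree and 744 to 1494 in conventional livers, with 3 of 8 lower, beside 2.74% of all genes. All 8 differences were below 0, with a median of -0.40, and 6 had an unadjusted p under 0.05. Those past the threshold were Clec4f, C1qa and C1qc at -0.48, -0.41 and -0.41 (limma adjusted p = 0.0018, 0.00394 and 0.0478), of which C1qc was lost in 21 of 30 fits that each left out 1 liver. Of 3 tested cholangiocyte markers, 1 was lower, beside 2.74% of all genes: Sox9 fell by 0.83 (limma adjusted p = 0.000672), and its r with Aqp8 was -0.57. The others went the other way, Krt7 by 0.07 and Krt23 by 0.12 (limma adjusted p = 0.780 and 0.808), with r of 0.21 and 0.46 with Aqp8. Of 4 tested acinar genes, 1 was higher, beside 3.75% of all genes: Cela2a rose by 1.50 (limma adjusted p = 1.2e-06), with r = -0.50 with Aqp8. Cela1, Cel and Cpb1 differed by 0.23, 0.04 and -0.04 and did not pass. Their r with Aqp8 was 0.36, -0.24 and -0.06. Without background correction and in the authors' normalized values, Cela2a differed by 0.86 and 0.92, and C1qa by -0.25 and -0.27. C1qc differed by -0.26 without background correction. In the erythroid list Tfrc rose by 0.59 and Alas2 fell by 0.49 (limma adjusted p = 0.029 and 0.00711). Hba-a1, the other tested gene of that list, differed by -0.32 (limma adjusted p = 0.456). In the adipocyte list Plin4 fell by 0.69, and in the stellate list Reln rose by 0.35 (limma adjusted p = 0.0224 and 0.0176). Each of these lists had 3 tested genes, and the others did not pass. Cidec and Adipoq differed by -0.56 and -0.21, and the stellate genes Lrat and Pdgfrb by -0.08 and -0.05. Tfrc was lost without germfree 11 or germfree 12. The part of these markers in the Aqp8 difference was not tested.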

How the data were processed

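Total RNA of 14 germfree and 16 conventional mouse livers was measured on Illumina single-colour arrays. The deposited table held, per the file headers, unnormalized bead intensity and a detection p-value per probe and array, and per the submitters' processing notes GenomeStudio was used. A further 33 arrays in that table match no labelled sample and were not used. The authors deposited quantile-normalized linear intensity of the same arrays, used as an alternative after log2 with 16 added. No genome build was given in the sources used here, so the RefSeq promoter windows carry their own build.

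Signals were corrected by normexp with background inferred from detection p-values, offset by 16, quantile normalized and put on the log2 scale (neqc, limma 3.58.1, R 4.3.3). Probes detected at p under 0.05 on at least 7 arrays were kept (10525 of 24613). A gene took its brightest probe. Symbols came from the platform annotation, which named 20984 probes with 1 symbol and 1 with several, and were updated through gene identifiers (20968 probes) or accessions (8), which renamed 7. Groups were compared by two-sided limma tests (lmFit, eBayes), and p-values were adjusted by Benjamini-Hochberg across 9084 genes. Correlations used 100000 permutations within groups (Python 3.11.15, scipy 1.17.1), and figures matplotlib 3.10.9. The fit was tested on simulated data.

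The members, lists, promoter windows and motifs were chosen with earlier results of these data known. Genes named are all aquaporin probes and the 5 most and 3 least correlated genes per member. List members past the threshold are named, with up to 4 more of the smallest p. Markers past the threshold are named, with the other tested markers of the cholangiocyte, acinar, erythroid, adipocyte and stellate lists. Slc4a4, Abcb11, Gpd2, Gpam, Dgat2, Lpl, Hnf4a, Cebpb, Cdh5, Clec4g, Eng, Vwf and Flt4 are further examples chosen after their values were seen. Alternatives covered background, normalization, filters, probe choice, weights, variance, covariates, the replicate number as a block and each array left out.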

Additional observations from a re-analysis of the deposited data

How the results depend on the processing

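The direction of Aqp8 held under all 16 alternatives, at -1.24 to -0.69, and with each liver left out, at -1.30 to -1.10. Not all 16 could move it: Aqp8 has only 1 probe, so the filter, probe choice and variance settings returned -1.20 again. Aqp8 was also noticed for this difference, so these values describe its size only. The near-zero differences changed sign in places. Aqp9 was 0.025 under median scaling, 0.014 under cyclic loess, 0.010 under median scaling on always-detected probes (detected on all 30 arrays), and 0.039 both with the replicate number as a block and on the same 28 arrays without the block. With each liver left out, Aqp9 was -0.028 to 0.025, Aqp11 -0.018 to 0.085 and Aqp1 -0.0092 to 0.079. Aqp1 was -0.16 as the mean of its probes and -0.023 without arrays of mean raw signal under 160. The dimmer Aqp11 probe was -0.061 without those arrays and -0.017 to 0.11 with each liver left out, and it was detected in 3 germfree and 3 conventional livers at a detection p under 0.01. The replicate block gave -1.17 for Aqp8, 0.07 for Aqp11 and 0.03 for Aqp1, and 497 genes, against 476 on the same arrays without it. The labels number the livers within each group and name no pairs. Same-numbered livers deviated together with r of -0.18 to 0.37 over 14 pairs, with a median of 0.09 and 7 over 0.1. Differently numbered livers were not compared, so these values do not decide whether the numbers pair livers. The dimmer Aqp1 probe was -0.35 with and without the block (limma adjusted p = 0.0948 and 0.0719). The count of genes was 519 to 609 with each liver left out and 69 under median scaling. Correlations with Aqp1 under median scaling were 0.094 for Aqp8, 0.62 for Aqp9 and 0.54 for Aqp11. Relations to mean raw signal and share of probes detected were then 0.13 and 0.18 for Aqp8, 0.83 and 0.72 for Aqp9, 0.68 and 0.42 for Aqp11, and 0.71 and 0.58 for Aqp1. With always-detected probes, the relation to mean raw signal was 0.16 for Aqp9 and 0.013 for Aqp11. Without the 2 farthest livers Aqp1 correlated at 0.13 with Aqp8, 0.042 with Aqp9 and 0.31 with Aqp11. The cause was not tested. Scaling on always-detected probes and the limit of 160 were chosen after seeing the data. Low signal over background limits Aqp8 and the dimmer Aqp11 probe.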
